A study of Mus musculus with 39 samples.

Results

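In all, 9 genes of the contractile lattice of skeletal muscle were followed through the injured tibialis anterior muscle of the mouse and through sorted satellite cells: Ttn, Neb, Actn2, Actn3, Acta1, Actc1, Des, Myot and Ldb3. The members were the rows of the deposited count table that carry these symbols, and all 9 were found among the 55011 gene symbols of the table. Their values are CPM, counts scaled to the column total of the library, unless a sentence names another scale.

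The sarcomere is the repeating contractile unit of striated muscle, in which thin filaments of actin are anchored at the Z-disc and slide past myosin. Titin (Ttn) spans from the Z-disc to the M-band, nebulin (Neb) runs along the thin filament, and the alpha-actinins (Actn2, Actn3) crosslink actin at the Z-disc. Skeletal alpha-actin (Acta1) is the main actin of adult fibres, and cardiac alpha-actin (Actc1) is made in the heart and, in skeletal muscle, in developing and regenerating fibres. Desmin (Des) is the intermediate filament that ties neighbouring Z-discs together, and myotilin (Myot) and ZASP, also called cypher (Ldb3), are Z-disc proteins that bind alpha-actinin.

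The study compared wild-type mice with Tcrd-DTR mice, in which gamma-delta T cells carry the diphtheria toxin receptor. Both genotypes received diphtheria toxin by intraperitoneal injection and cardiotoxin in the muscle, a venom toxin that destroys fibres and starts regeneration. Whole tibialis anterior was taken at 1, 3, 7 and 14 days, with 3 libraries per genotype and day and 2 for Tcrd-DTR at day 7, each from 2 ng of RNA. Satellite cells, the stem cells of muscle, were sorted at day 1 from both genotypes (3 libraries each, 1000 cells a library). At day 7 of the same injury, muscle of wild-type mice was compared after intraperitoneal and intramuscular injection of either PBS or the recombinant cytokine IL-17A (rIL-17A), with 2 libraries each. Vg6 T cells, a gamma-delta subset, were sorted from wild-type colon without injury and from wild-type injured muscle at day 3 (3 libraries each). Every whole-muscle group therefore carries the cardiotoxin injury, no uninjured muscle was analysed here, and the toxin was also given to the wild-type mice of the time course.

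On the GRCm38 build the genes lie on 7 chromosomes. Ttn is at chr2:76703980-76982547, Neb at chr2:52136647-52378474 and Actc1 at chr2:114047282-114053548, all on the minus strand. Acta1 is at chr8:123891769-123894751, Actn2 at chr13:12269426-12340760, Actn3 at chr19:4861216-4877909 and Ldb3 at chr14:34526603-34588682, also on the minus strand. Des lies on the plus strand at chr1:75360329-75368579. The longest annotated transcripts span a wide range, from 1.45 kb for Acta1 and 1.47 kb for Actc1, through 2.21 kb for Myot, 2.89 kb for Actn3, 3.01 kb for Actn2, 3.03 kb for Des and 5.12 kb for Ldb3, to 22.49 kb for Neb and 106.82 kb for Ttn. Of the 50-base stretches of the longest transcript, 5.81% in Des also occur in the antisense gene Gm15179 and 2.22% in Acta1 also occur in other genes, among them Actb. The Des counts are uncertain to that extent, because the strand setting of the counting is not given in the sources used here. Actc1, Myot and Ldb3 shared no such stretch with another gene.

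The promoters of Acta1, Actc1 and Ldb3 are shown because they hold a CArG box, the binding motif of serum response factor, a known regulator of actin genes. The rise between days 3 and 7 does not set these genes apart. All 9 members rose in wild-type muscle, among them Actn2, Des and Ttn, whose promoters held no CArG box. Each sequence is the 250 bases before the RefSeq gene start (GRCm38.p6, minus strand, written 5′ to 3′), at chr8:123894776-123895025 for Acta1, chr2:114052876-114053125 for Actc1 and chr14:34588682-34588931 for Ldb3. For Actc1 this window lies inside the gene span given above, whose upper end is 114053548. The RefSeq start of Actc1 thus differs from the start of that span, and the window is upstream of the RefSeq start only. Capitals mark the CArG box.
Acta1: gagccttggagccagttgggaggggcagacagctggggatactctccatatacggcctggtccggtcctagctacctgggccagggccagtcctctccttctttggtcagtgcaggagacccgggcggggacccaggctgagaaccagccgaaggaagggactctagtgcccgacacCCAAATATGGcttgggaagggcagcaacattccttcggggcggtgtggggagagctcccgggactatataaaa
Actc1: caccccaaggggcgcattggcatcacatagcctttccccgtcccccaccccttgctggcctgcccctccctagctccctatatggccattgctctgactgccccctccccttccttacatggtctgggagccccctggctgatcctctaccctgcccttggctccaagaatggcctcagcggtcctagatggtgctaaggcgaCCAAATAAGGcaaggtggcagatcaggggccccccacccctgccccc
Ldb3: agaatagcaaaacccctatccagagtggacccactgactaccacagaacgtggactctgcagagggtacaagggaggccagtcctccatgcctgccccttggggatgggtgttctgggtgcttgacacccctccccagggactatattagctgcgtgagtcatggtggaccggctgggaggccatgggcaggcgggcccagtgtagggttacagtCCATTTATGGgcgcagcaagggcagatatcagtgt
The match begins 73 bases before the listed start in Acta1, 47 before it in Actc1 and 35 before it in Ldb3. Of the 6 members whose promoter was searched (Myot was not looked up), these 3 held a CArG box. So did 1.47% of the 32851 RefSeq promoter windows of the same length. Ttn held a MEF2 box, which 2.92% of the windows held. An E-box (CANNTG, which reads the same on both strands) was present in 4 of the 6, namely Acta1, Actn2, Des and Ttn, and in 66.2% of all windows. These are matches of letters only, and binding of any factor was not measured.

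Library totals ran from 2372139 to 10974862 counts. The 12 other genes taken as markers of mature myofibres, Ckm, Mb and Myh4 among them, summed to 17340 to 169200 CPM in whole muscle. At day 7 that sum was 126500 to 130800 CPM in wild-type muscle. At day 3 the wild-type libraries gave 17340, 38810 and 61000 CPM, and wild-type replicate 1, the lowest, was also the lowest of its group for each of the 9 members. The TMM scaling factors used by the tests were 1.29 to 1.44 in the day 3 libraries and 0.624 to 0.903 at day 7, so a gene with the same CPM on both days carries a positive log2 change in the tests. The median log2 change of all tested genes lay between −0.10 and 0.05 in the other pairwise comparisons and was −0.22 for Tcrd-DTR muscle from day 3 to day 7. The 3 T cell markers summed to 0.659 to 8.94 CPM in the whole muscle of the time course, too few counts to check the depletion of gamma-delta T cells. In whole muscle, fewer fibres and less RNA per fibre cannot be told apart.

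Per kb of transcript, skeletal actin stood far above the other members in every whole-muscle group. In wild-type muscle at day 14 Acta1 reached 44090 ± 2253 CPM per kb (SD, n = 3). Actn3 (1581), Des (1440) and Actc1 (1392 CPM per kb) followed, and each overlapped with its neighbour in that order across libraries. Actn2 (945.8), Myot (462.7), Neb (409.4), Ldb3 (367.2) and Ttn (223.4 CPM per kb) came next, with no overlap between neighbours. At day 3 in wild-type muscle the range over the 3 libraries was apart from that of the gene below it for Acta1 and Des, and the ranges of the other neighbours overlapped. Together the 9 genes took 7.83 ± 0.845% of all counts at day 1, 3.46 ± 1.63% at day 3, 10.2 ± 1.23% at day 7 and 11.4 ± 0.438% at day 14 in wild-type muscle (SD, n = 3).

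**Figure D1:**
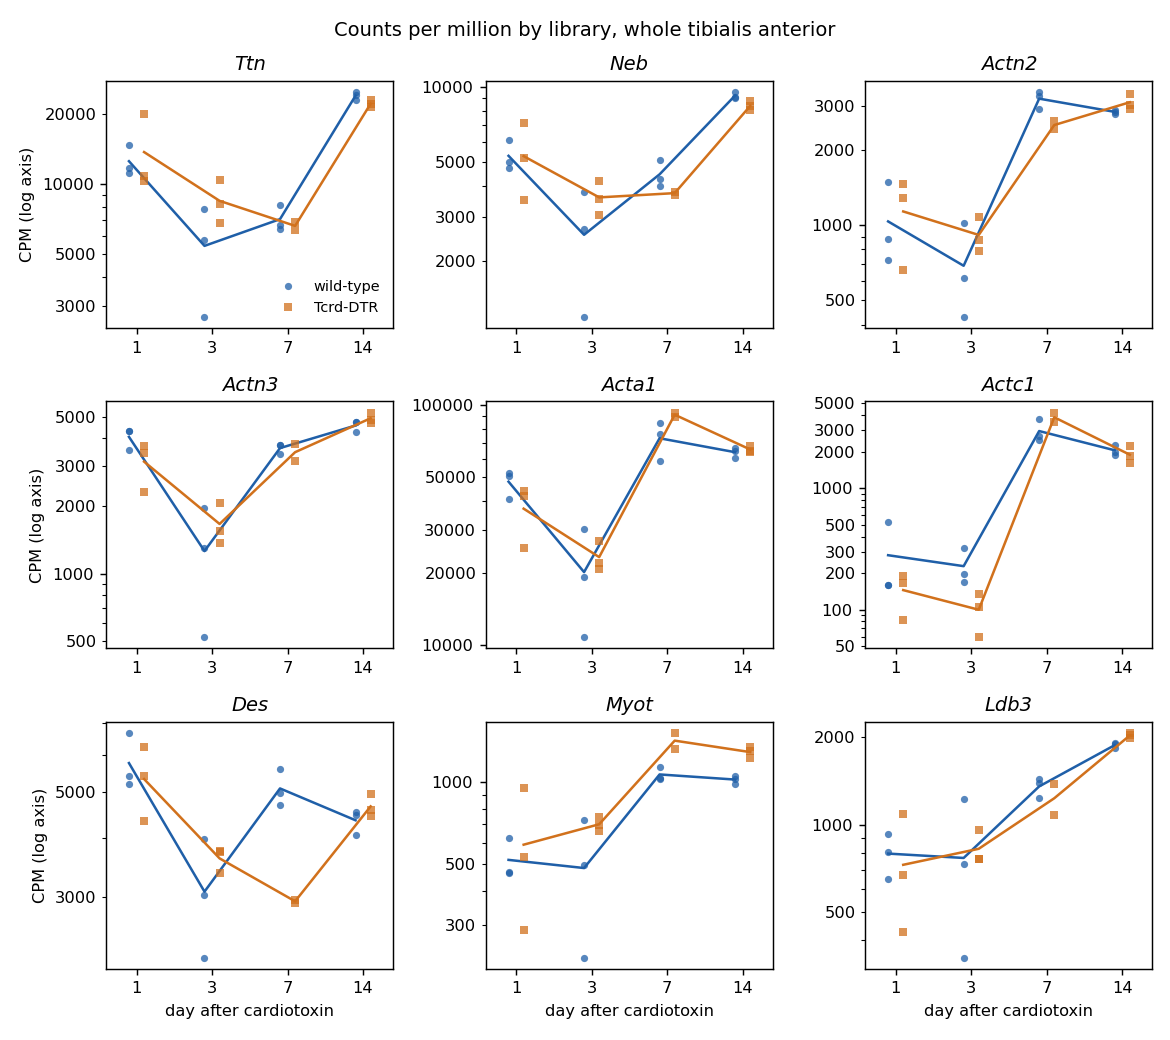
CPM of the 9 genes (log axis) in each whole-muscle library against the day after cardiotoxin (days evenly spaced), wild-type as circles and Tcrd-DTR as squares, with lines through the group means. The day 3 values lie low for Acta1 and Actn3 in both genotypes, Actc1 goes from 228 CPM at day 3 to 2953 CPM at day 7 in wild-type muscle, and Ttn and Neb are highest at day 14.

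The question of the time course was how the genes move through injury and repair in each genotype. All 9 members changed over the 4 days in wild-type muscle and all 9 in Tcrd-DTR muscle (edgeR quasi-likelihood test, Benjamini-Hochberg adjusted p under 0.05), against 53.7% and 56.2% of all tested genes. The steps between successive days share libraries (those of day 3 serve the first and the second step), so their values stand side by side without a test between steps.

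From day 1 to day 3 most of the lattice genes were lower. In wild-type muscle 6 of the 9 fell, against 9.36% of all genes called lower, and in Tcrd-DTR muscle 3 of the 9 fell, against 5.85%. In wild-type muscle these were Ttn, Neb, Actn2, Actn3, Acta1 and Des, and in Tcrd-DTR muscle Ttn, Actn3 and Des. In wild-type muscle the Actn2 call (1498, 883.6 and 727.5 CPM at day 1, adjusted p = 0.0378, edgeR) was lost without day 1 replicate 1, day 3 replicate 1 or day 3 replicate 2 (adjusted p = 0.356, 0.186 and 0.136), and Ldb3 fell without day 3 replicate 3 (adjusted p = 0.0358, edgeR). The count in Tcrd-DTR muscle rests on single libraries: it was 0 without day 3 replicate 1, 1 without day 1 replicate 1, day 1 replicate 3 or day 3 replicate 3, and 6 without day 1 replicate 2.

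Both giant filaments fell in wild-type muscle. Ttn stood at 11200, 11680 and 14690 CPM at day 1 and at 2709, 5779 and 7836 CPM at day 3 in wild-type muscle. The groups did not overlap, and Ttn fell 3.00-fold (log2 change −1.59 ± 0.32, SE, adjusted p = 0.000356, edgeR). Neb went from 4706, 5013 and 6129 CPM to 1200, 2686 and 3772 CPM, a 2.696-fold fall (adjusted p = 0.000871, edgeR). In Tcrd-DTR muscle Ttn fell 1.97-fold (19970, 10300 and 10840 CPM at day 1, 8189, 10400 and 6840 CPM at day 3, adjusted p = 0.0296, edgeR), with 1 library of day 3 inside the day 1 range. Neb there went from 7119, 3505 and 5181 CPM to 3053, 4201 and 3554 CPM and did not pass (log2 change −0.84 ± 0.31, adjusted p = 0.0605, edgeR).

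Skeletal actin and its fast-fibre crosslinker dropped as far. Acta1 stood at 52370, 40760 and 50880 CPM at day 1 and at 10740, 19230 and 30310 CPM at day 3 in wild-type muscle, 3.12-fold lower (adjusted p = 0.000693, edgeR). Actn3, the alpha-actinin of fast fibres, went from 4326, 3546 and 4323 CPM to 521.0, 1306 and 1953 CPM. Its fall of 4.21-fold (adjusted p = 1.53e-05, edgeR) was the largest of the 9 members at this step. Des, 6672, 5406 and 5217 CPM at day 1, fell 2.45-fold to 2232, 3029 and 3975 CPM (adjusted p = 0.000251, edgeR). Actc1, Myot and Ldb3 did not pass in either genotype with all libraries (adjusted p = 0.255 to 0.928, edgeR), and their libraries overlapped between the days.

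Between day 3 and day 7 the direction turned. All 9 members rose in wild-type muscle, against 17.9% of all genes called higher, and 8 of 9 in Tcrd-DTR muscle, against 17.1%. The median log2 change of the 9 was 1.93 in wild-type and 2.02 in Tcrd-DTR muscle, beside medians of 0.04 and −0.22 over all tested genes. The 12 myofibre markers rose over the same days as listed above, and their part in the members' rise was not tested.

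The cardiac actin gene moved most. Actc1 stood at 169.0, 195.9 and 319.4 CPM at day 3 and at 3678, 2699 and 2482 CPM at day 7 in wild-type muscle. Each day 7 library was above every day 3 library, and the gene rose 22.6-fold (log2 change 4.497 ± 0.483, adjusted p = 2.2e-07, edgeR). In Tcrd-DTR muscle it went from 106.0, 134.2 and 59.4 CPM to 3486 and 4183 CPM, 76.4-fold higher (log2 change 6.26 ± 0.54, adjusted p = 1.37e-08, edgeR). Acta1, with 84400, 75930 and 58460 CPM at day 7, rose 6.31-fold in wild-type muscle, and with 93290 and 89690 CPM it rose 7.86-fold in Tcrd-DTR muscle. Actc1 thus made up 1.201 ± 0.303% of the summed Acta1 and Actc1 counts at day 3 and 3.89 ± 0.402% at day 7 in wild-type muscle (SD, n = 3).

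The alpha-actinins rose together. Actn2, the isoform of all fibre types, went from 430.0, 615.7 and 1019 CPM to 3313, 3415 and 2929 CPM in wild-type muscle, 8.07-fold higher (adjusted p = 7.72e-08, edgeR). In Tcrd-DTR muscle it reached 2437 and 2609 CPM, 5.46-fold higher (adjusted p = 5.31e-06, edgeR). Actn3 rose 4.93-fold in wild-type and 4.18-fold in Tcrd-DTR muscle. The share of Actn2 in the summed counts of both alpha-actinins was 20.0 ± 5.66% at day 1, 37.2 ± 7.05% at day 3, 47.0 ± 3.04% at day 7 and 38.5 ± 1.31% at day 14 in wild-type muscle (SD, n = 3).

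Among the other Z-disc genes, Myot, on the plus strand of chromosome 18 (44334074 to 44355724), went from 227.8, 496.9 and 729.2 CPM to 1139, 1035 and 1027 CPM in wild-type muscle, a 3.80-fold rise (adjusted p = 0.000531, edgeR). Ldb3, 348.2, 733.2 and 1222 CPM at day 3 and 1392, 1234 and 1439 CPM at day 7, rose 3.02-fold (adjusted p = 0.00117, edgeR). In Tcrd-DTR muscle the rises were 4.04-fold for Myot and 3.00-fold for Ldb3, the latter lost without day 7 replicate 1 (adjusted p = 0.0947, edgeR).

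For the long transcripts and for Des the scaling decided the size of the change. Ttn in wild-type muscle reached 6700, 6419 and 8117 CPM at day 7, overlapping day 3. It rose 2.22-fold on the TMM scale (log2 change 1.149, adjusted p = 0.00362), while with column totals alone its log2 change was 0.38 (adjusted p = 0.262, edgeR). In Tcrd-DTR muscle Ttn was the 1 member that did not pass, at 8189, 10400 and 6840 CPM on day 3 and 6380 and 6870 CPM on day 7 (log2 change 0.64 ± 0.35, adjusted p = 0.148, edgeR). Des in Tcrd-DTR muscle was lower in CPM at day 7 (2918 and 2956 CPM) than at day 3 (3727, 3761 and 3375 CPM), without overlap. Its log2 change was 0.69 ± 0.28 on the TMM scale (adjusted p = 0.0472) and −0.31 with column totals alone (adjusted p = 0.219, edgeR). The Des call was lost without any 1 of the 5 libraries of these days (log2 change 0.53 to 0.72). Neb in Tcrd-DTR muscle (3053, 4201 and 3554 CPM, then 3692 and 3802 CPM, log2 change 1.05, adjusted p = 0.014) was lost without either day 7 library or day 3 replicate 1 (adjusted p = 0.124, 0.0514 and 0.0627, edgeR). With column totals alone 5 members rose in Tcrd-DTR muscle, and the same number rose without Tcrd-DTR day 7 replicate 1.

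**Figure D2:**
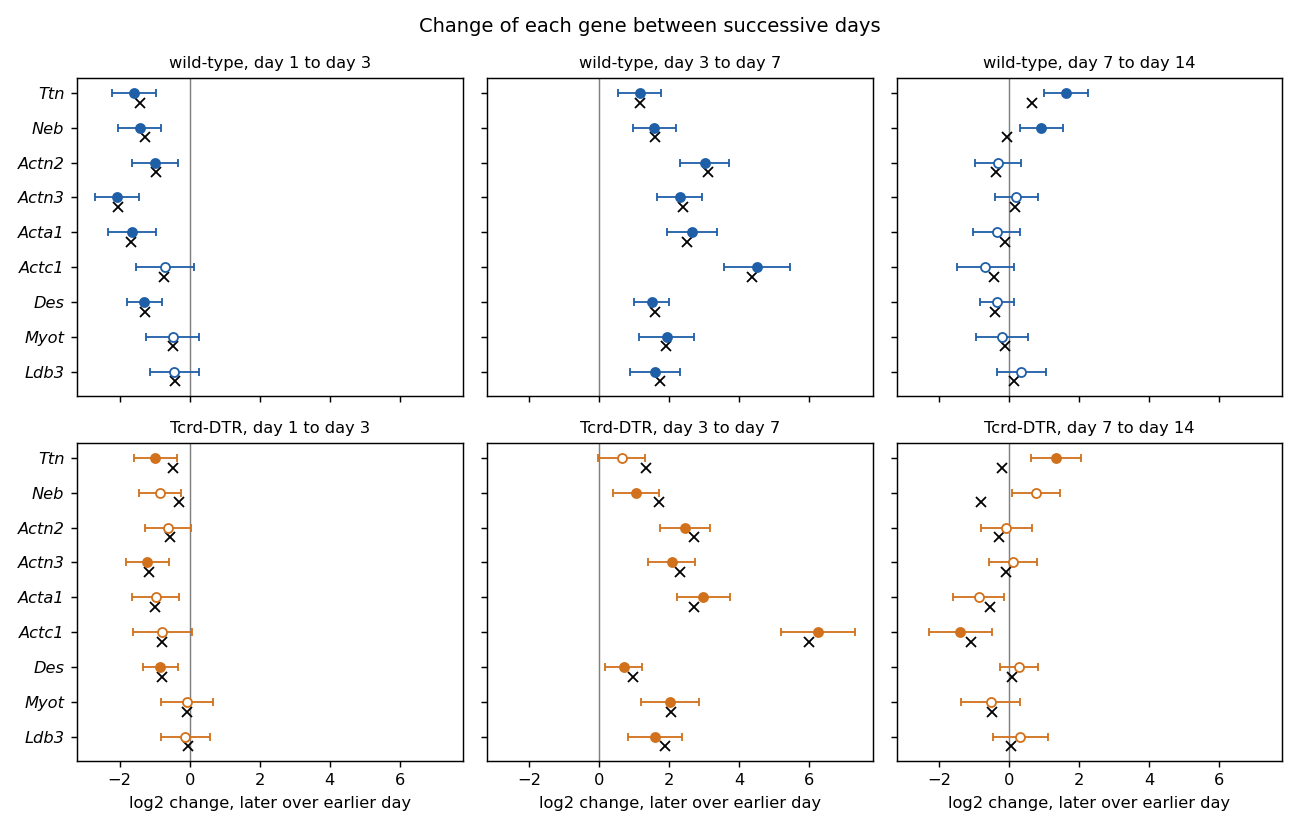
Log2 change of each gene between successive days in wild-type and Tcrd-DTR muscle (edgeR, TMM scale, circles with 95% intervals, filled where the adjusted p is under 0.05), and below each the value with the length offset (crosses). All 9 wild-type values lie above 0 from day 3 to day 7, and from day 7 to day 14 the circles of Ttn and Neb lie above 0 while their crosses lie lower.

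From day 7 to day 14 the members parted. Ttn and Neb rose in wild-type muscle, the count of 2 of 9 standing against 4.14% of all genes called higher. In Tcrd-DTR muscle Ttn rose, against 14.6% called higher, and Actc1 fell, against 19.7% called lower. Ttn reached 24690, 22910 and 24010 CPM in wild-type muscle, above every earlier library of that genotype, and rose 3.10-fold from day 7 (log2 change 1.63 ± 0.32, adjusted p = 0.000387, edgeR). Neb reached 9491, 9097 and 9037 CPM, 1.90-fold above day 7 (adjusted p = 0.0323, edgeR), a call lost without any 1 of these 6 libraries except day 7 replicate 3 (adjusted p = 0.0611 to 0.0952, edgeR). Ttn in Tcrd-DTR muscle reached 22810, 22010 and 21360 CPM, 2.55-fold higher (adjusted p = 0.00466; 0.0509 without day 7 replicate 2, edgeR). Actc1 in Tcrd-DTR muscle went to 1621, 1830 and 2206 CPM, 2.62-fold lower (log2 change −1.39, adjusted p = 0.025, edgeR), and this call was lost without either day 7 library or without day 14 replicate 1 or 2 (adjusted p = 0.07 to 0.136, edgeR). In wild-type muscle Actc1 did not pass (1871, 2281 and 2000 CPM, log2 change −0.68, adjusted p = 0.297, edgeR).

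The other members did not pass at this step. In wild-type muscle their log2 changes were −0.32 for Actn2, 0.20 for Actn3, −0.35 for Acta1, −0.35 for Des, −0.20 for Myot and 0.34 for Ldb3 (adjusted p = 0.368 to 0.776, edgeR). In Tcrd-DTR muscle Acta1 had −0.87 (adjusted p = 0.0695) and Neb 0.77 (adjusted p = 0.0822), and the log2 changes were −0.07 for Actn2, 0.10 for Actn3, 0.28 for Des, −0.53 for Myot and 0.32 for Ldb3 (adjusted p = 0.351 to 0.896, edgeR).

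The rise of the giant transcripts ran with a trend over all genes. The slope of log2 CPM on transcript length, per doubling of length and with the members left out, was −0.13, −0.13 and −0.06 in the wild-type day 7 libraries and 0.12, 0.10 and 0.11 in those of day 14. In Tcrd-DTR muscle it was −0.23 in both day 7 libraries and 0.10, 0.06 and 0.03 at day 14. For wild-type muscle from day 7 to day 14 the median log2 change was −0.41 among the genes with the shortest transcripts (up to 2115 bases) and 0.48 among the 1040 genes over 8 kb. With the length trend of each library entered as an offset (lengths held at 20000 bases beyond that point), no member passed at this step in either genotype. Ttn then had a log2 change of 0.66 in wild-type muscle (adjusted p = 0.182) and −0.21 in Tcrd-DTR muscle (adjusted p = 0.682), and Neb −0.05 (adjusted p = 0.943) and −0.79 (adjusted p = 0.103, edgeR). From day 3 to day 7 the offset left all 9 wild-type members past the test. Ttn per kb stood at 0.137 ± 0.0446% of Acta1 per kb at day 7 and at 0.507 ± 0.0150% at day 14 in wild-type muscle (SD, n = 3).

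Partners of the members followed similar days. Of 34 partners at the Z-disc and thin filament, 19 fell from day 1 to day 3 in wild-type muscle, and 25 rose and 1 fell from day 3 to day 7. Their median log2 change was −1.003 at the earlier step and 1.23 at the later one, beside −0.00031 and 0.04 over all tested genes. Among the falls were Xirp1 (9.83-fold), Flnc (7.37-fold), Klhl40 (8.42-fold) and Ankrd1 (6.05-fold), genes of proteins known to respond to strain or to stabilise the thin filament. Among the rises from day 3 to day 7 were Smpx (7.20-fold), Cfl2 (5.29-fold), Myoz1 (6.90-fold) and Pdlim7 (3.53-fold), which encode Z-disc, costamere and actin-remodelling proteins. Of the 13 M-band and titin partners, 7 fell and 2 rose at the earlier step, and 11 rose and 1 fell at the later one, with Myom3 9.04-fold higher and the chaperone Hsp90aa1 5.06-fold lower.

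Actins and actinins of other cells went the other way. Of 6 such genes 4 fell from day 3 to day 7 in wild-type muscle and none rose, where 19% of all tested genes were called lower. The cytoplasmic actin Actb went from 6208 ± 663.9 CPM at day 3 to 1495 ± 354.8 CPM at day 7 (2.36-fold lower, adjusted p = 0.000166), and Actg1 from 588.2 to 60.8 CPM (5.60-fold lower, adjusted p = 4.74e-11, edgeR). Among the 8 intermediate filament partners of desmin, vimentin (Vim) was 8.28-fold lower and the keratin Krt18 9.73-fold higher at that step. The summed macrophage markers were 2154 to 3597 CPM at day 3 and 116.5 to 225.4 CPM at day 7 in wild-type muscle, and their part in the falls of Actb and Vim was not tested. Of the 13 measured regulators of sarcomere genes, 6 rose and 2 fell (17.9% of all tested genes were called higher and 19% lower), Mef2c 4.35-fold and Myf6 5.23-fold higher and Myod1 2.95-fold lower.

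The study asked next whether loss of gamma-delta T cells changes the muscle at each day. No member passed between Tcrd-DTR and wild-type muscle on any day (0 of 9 on days 1, 3, 7 and 14, edgeR). The share of all tested genes called was 0% at day 1, 0% at day 3, 2.01% at day 7 and 0.0767% at day 14. In simulated counts the day 7 test found 11 of 100 genes changed 2-fold and 48 of 100 changed 4-fold, so real changes can go uncalled. The changed genes were drawn from genes of any level, and recovery at the high levels of the members was not tested separately. At an unadjusted p under 0.05 there were 777 genes at day 1 and 873 at day 3, while DESeq2 called 0 and 2, with no member among its calls on any day. The genotype by time interaction called 0.608% of all genes and none of the 9 members (adjusted p = 0.323 for Actc1 to 0.971 for Ldb3, edgeR).

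At day 1 the log2 changes of the members other than Actc1 lay between −0.45 (Actn3 and Acta1) and 0.14 (Myot), and at day 3 between 0.12 (Ldb3) and 0.65 (Ttn, unadjusted p = 0.0437, adjusted p = 1, edgeR). Actc1 had the smallest unadjusted p of the members on both days (0.0178 and 0.0121, adjusted p = 0.998 and 0.787, edgeR). At day 3 the Tcrd-DTR libraries at 106.0, 134.2 and 59.4 CPM all lay below the wild-type libraries at 169.0, 195.9 and 319.4 CPM, with a log2 change of −1.18 ± 0.43 (adjusted p = 0.787, edgeR). Across all genes 5.78% were lower without overlap on that day. Its share of the summed Acta1 and Actc1 counts was 0.508, 0.494 and 0.271% in Tcrd-DTR and 1.55, 1.01 and 1.04% in wild-type libraries. An exact two-sided permutation test gave p = 0.1, the smallest that 3 against 3 allows, and 0.8 after adjustment over the 10 ratio comparisons made. By day 7 the order of the means was the other way, 3834 CPM in Tcrd-DTR and 2953 CPM in wild-type muscle, with overlapping libraries. The 5 heart muscle markers (Myh6, Myl7, Nppa, Myl4 and Tnni3) summed to 49.5 to 55.8 CPM in Tcrd-DTR and 90.7 to 107.6 CPM in wild-type muscle at day 3. At day 7 the sums were 364.3 to 798.3 and 313.9 to 345.4 CPM. These sums do not tell which of the 5 genes was present or which cells made it. In sorted satellite cells Myl4 had 26 to 48 counts a library and Tnni3 0 to 7, and Myh6, Myl7 and Nppa had 0. The relation of these 5 genes to the Actc1 values was not tested.

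At day 7 Des was lower in both Tcrd-DTR libraries (2918 and 2956 CPM) than in the 3 wild-type libraries (4693, 4991 and 5597 CPM). The log2 change was −0.56 ± 0.28 (adjusted p = 0.257) on the TMM scale and −0.80 (adjusted p = 0.0316, edgeR) with column totals alone, the 1 setting tried under which a member passed between the genotypes in whole muscle. Myot was higher in Tcrd-DTR muscle without overlap at day 7 (1512 and 1326 against 1139, 1035 and 1027 CPM) and at day 14 (1224, 1295 and 1346 against 1023, 1057 and 985.7 CPM). Its log2 changes were 0.64 ± 0.42 and 0.31 ± 0.38 (adjusted p = 0.406 and 1, edgeR). On each of these days 5 of the 9 members did not overlap between the genotypes. At day 7 Acta1 (log2 change 0.54) was the other higher member and Neb (−0.01) and Actn2 (−0.13) were lower beside Des, where 8.30% of all genes were higher and 20.9% lower without overlap. At day 14 Actn2 (0.11) and Ldb3 (0.08) were higher beside Myot and Ttn (−0.14) and Neb (−0.16) lower, where 8.28% of all genes were higher and 5.69% lower without overlap. The members that overlapped had log2 changes of 0.14 (Ttn), 0.18 (Actn3), 0.58 (Actc1) and 0.11 (Ldb3) at day 7 and of 0.08 (Actn3), 0.02 (Acta1), −0.14 (Actc1) and 0.08 (Des) at day 14. The 2 Tcrd-DTR libraries of day 7 also had the most negative length slopes of the time course.

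At day 7, 2 of the 74 measured partners passed, where 2.01% of all tested genes were called. Trim63, the MuRF1 ubiquitin ligase that binds titin at the M-band, was 36.9 ± 11.2 CPM (SD, n = 2) in Tcrd-DTR and 102.9 ± 28.6 CPM (SD, n = 3) in wild-type muscle, 2.30-fold lower (adjusted p = 0.0241, edgeR). Fhl3, a LIM protein of muscle, was 3.34 CPM against 13.9 CPM, 3.43-fold lower (adjusted p = 0.0357, edgeR). Neither call held without wild-type replicate 3 (adjusted p = 0.103 and 0.156) or without Tcrd-DTR replicate 2 (adjusted p = 0.351 and 0.338, edgeR), and that of Fhl3 was also lost without Tcrd-DTR replicate 1 (adjusted p = 0.104, edgeR).

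**Figure D3:**
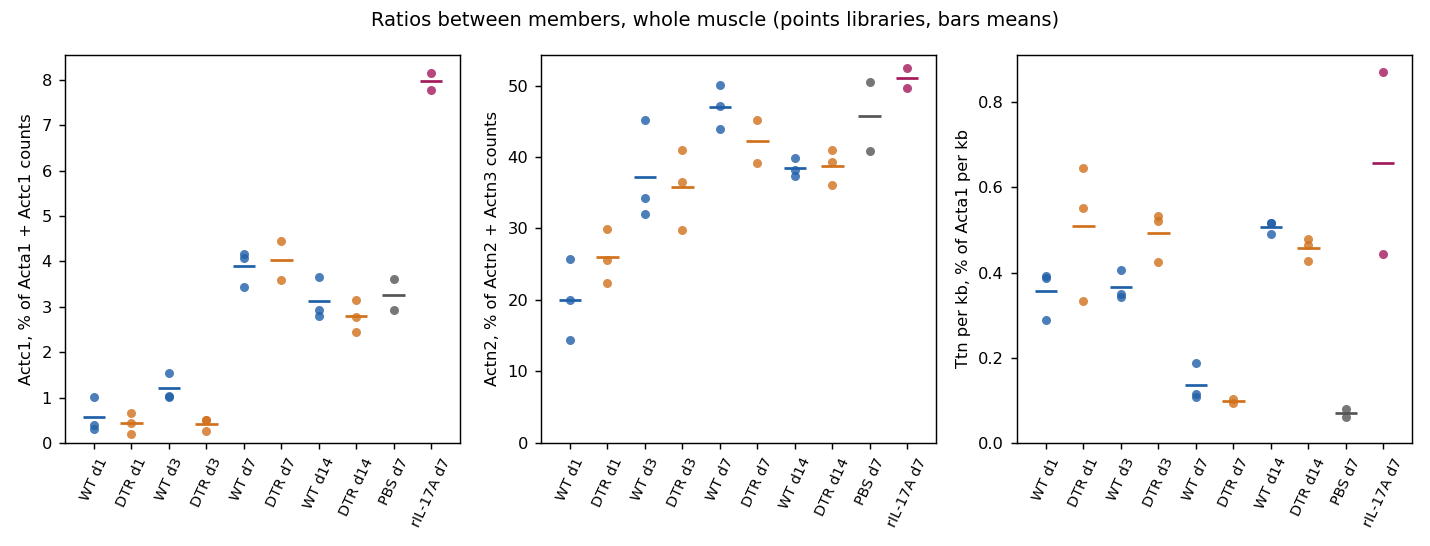
Ratios between members in each whole-muscle library, with WT for wild-type, DTR for Tcrd-DTR, d for the day and bars at the group means. The Actc1 share of the 2 actins is at most 1.55% up to day 3, 2.45 to 4.46% at days 7 and 14 and in PBS muscle, and 7.78 and 8.16% after rIL-17A, while Ttn per kb relative to Acta1 per kb is low in the wild-type, Tcrd-DTR and PBS libraries of day 7.

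Recombinant IL-17A given to injured wild-type mice was compared with PBS at day 7 to see how the cytokine alters the regenerating muscle. Of the 9 members 5 rose (Ttn, Neb, Des, Actn2 and Actn3), against 18.1% of all genes called higher, and 2 fell (Acta1 and Myot), against 16.1% called lower. No rIL-17A library overlapped a PBS library for any of the 9, in one direction or the other. Over all tested genes 40.5% were higher and 28.4% lower without overlap.

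Ttn stood at 4333 and 5968 CPM after PBS and at 18510 and 35090 CPM after rIL-17A, 4.61-fold higher (log2 change 2.20 ± 0.30, adjusted p = 0.00028, edgeR). Neb went from 3454 and 4517 CPM to 9779 and 12380 CPM, 2.49-fold higher (log2 change 1.31 ± 0.24, adjusted p = 0.00151, edgeR). Des stood at 2373 and 2888 CPM after PBS and at 8016 and 8274 CPM after rIL-17A. Its 2.78-fold rise (log2 change 1.48 ± 0.23, adjusted p = 0.000553, edgeR) placed both treated libraries above all 23 libraries of the time course.

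The alpha-actinins rose less. Actn2, 2079 and 2839 CPM after PBS and 5298 and 5197 CPM after rIL-17A, was 1.92-fold higher (adjusted p = 0.00868, edgeR). Actn3, 3011 and 2781 CPM after PBS and 5377 and 4715 CPM after rIL-17A, was 1.58-fold higher (adjusted p = 0.0312, edgeR). The Actn2 call was lost without PBS replicate 1 or rIL-17A replicate 1 (adjusted p = 0.0876 and 0.0626), and that of Actn3 without either of them or PBS replicate 3 (adjusted p = 0.0982, 0.306 and 0.103, edgeR). In fits without 1 library of this comparison 1 group holds a single library, which is assumed to vary like the other group.

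Of the 2 sarcomeric actins Acta1 fell and Actc1 did not pass. Acta1 was 97310 and 102300 CPM after PBS and 56390 and 54510 CPM after rIL-17A, 1.99-fold lower (log2 change −0.995 ± 0.243, adjusted p = 0.00768, edgeR; 0.0815 without PBS replicate 3). Actc1 was 3641 and 3088 CPM after PBS and 4759 and 4845 CPM after rIL-17A, a log2 change of 0.37 ± 0.21 that did not pass (adjusted p = 0.187, edgeR). The transcripts of the 2 genes are of nearly equal length, and the Actc1 share of their summed counts was 3.61 and 2.93% after PBS and 7.78 and 8.16% after rIL-17A. With 2 libraries a group an exact permutation test cannot go below p = 0.333, which is the value it gave (0.8 adjusted over the 10 ratio comparisons).

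Myot stood at 1473 and 1499 CPM after PBS and at 848.8 and 792.1 CPM after rIL-17A, 2.00-fold lower (adjusted p = 0.00279, edgeR). Ldb3 was 1063 and 1185 CPM after PBS and 1415 and 1569 CPM after rIL-17A, which did not pass (log2 change 0.26 ± 0.20, adjusted p = 0.35, edgeR).

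Transcript length separated these libraries over all genes. The length slope was −0.18 and −0.20 log2 per doubling in the PBS libraries and 0.13 and 0.26 in the rIL-17A libraries. Among the 1274 genes with the shortest transcripts (median 992 bases) the median log2 change was −0.68 and 26.9% of genes were higher after rIL-17A. Among the 1274 with the longest (median 8272 bases) the median was 0.62 and 73.9% were higher. Across the 5 partner lists the 26 genes that rose had a median transcript of 4.13 kb and the 21 that fell one of 2.02 kb.

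With the length offset 5 members passed in the same direction as before, Ttn (log2 change 1.31, adjusted p = 0.00219), Des (1.39, 0.00129), Actn2 (0.86, 0.0164), Actn3 (0.61, 0.0414) and Myot (−0.83, 0.0095). Neb (0.47, 0.123) and Acta1 (−0.56, 0.0711) no longer passed, and Actc1 did (0.80, adjusted p = 0.0106, edgeR). With GC content added to the offset, Acta1 passed again (−0.81, adjusted p = 0.0179) and Actn3 did not (0.29, adjusted p = 0.312, edgeR). The transcripts of Des, Actn2 and Actn3 are close to 3 kb, where the median log2 change of other genes was 0.04 and 51.9% of genes were higher. The part of length in the changes of Des, Actn2 and Actn3 was not tested further. Ttn and Neb lie beyond the range in which the offset follows length, at this comparison and in the time course, and how far length accounts for their values was not tested further.

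**Figure D4:**
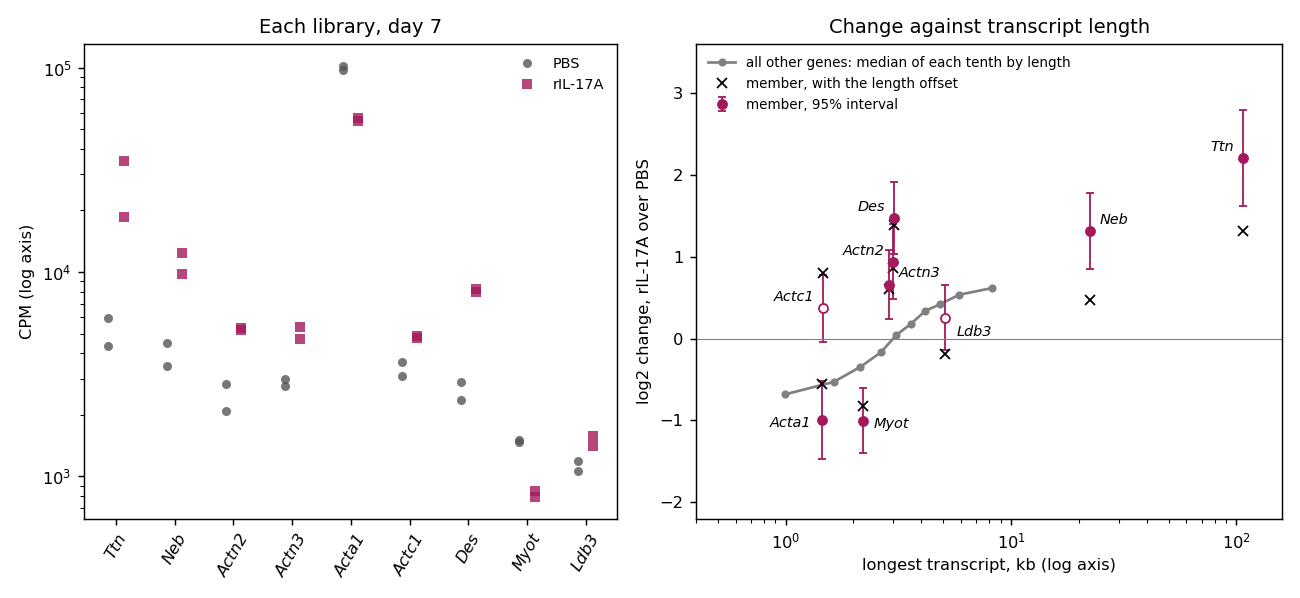
Left, CPM of each gene (log axis) in the 2 PBS and 2 rIL-17A libraries of day 7. Right, log2 change after rIL-17A against transcript length (log axis) with 95% intervals (filled where the adjusted p is under 0.05), crosses for the value with the length offset, and a grey line for the median of other genes in 10 bins of length, which runs from −0.68 to 0.62 as transcripts lengthen.

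Partner genes changed in both directions after rIL-17A. Of the 33 Z-disc and thin filament partners tested 9 rose and 13 fell, with Fhl3 40.3-fold (128.9 against 2.87 CPM), Lmod2 9.59-fold and Flnc 5.01-fold higher and Ankrd1 6.78-fold lower. Of the 13 M-band and titin partners 7 rose and 1 fell, among them the titin-binding ligases Trim55 (5.43-fold) and Trim63 (3.61-fold) and the muscle methyltransferase Smyd1 (3.81-fold), all higher. Of the intermediate filament partners of desmin, plectin (Plec) was 5.15-fold, Sync 6.35-fold and synemin (Synm) 2.52-fold higher and Krt18 4.91-fold lower. Among 12 tested regulators 4 rose and 3 fell, with Vgll2 33.4-fold and Mrtfa, a coactivator of serum response factor, 6.01-fold higher and Myf6 3.34-fold and Myog 2.03-fold lower. The 12 myofibre markers summed to 106400 and 118200 CPM after PBS and 165000 and 142800 CPM after rIL-17A, and the 3 endothelial markers to 101.7 to 116.0 and 250.1 to 254.1 CPM. The 5 genes listed as heart muscle markers were lower after rIL-17A (341.2 and 388.9 against 665.9 and 491.3 CPM), as were the 5 macrophage markers (161.4 and 230.7 against 334.6 and 287.6 CPM). Fibroblast markers (4939 to 7003 against 3564 to 5650 CPM) and smooth muscle and pericyte markers (566.0 to 622.4 against 465.0 to 679.1 CPM) overlapped. Which cells made the genes of the heart muscle list is not shown by these sums. The part of any of the cell types in the members' differences was not tested.

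In sorted satellite cells at day 1 desmin was the 1 member at a high level. Des stood at 2213, 2473 and 3300 CPM in wild-type and 2325, 1957 and 1883 CPM in Tcrd-DTR cells, 879.2 ± 187.5 CPM per kb in wild-type cells (SD, n = 3). Actn3 followed at 14.8 and Acta1 at 10.6 CPM per kb, with no overlap between the 3 genes. Actc1 and Myot had 0 counts in the 3 wild-type libraries, which allows up to 0.191 CPM over the group (3 counts of the summed total, counting error only). The satellite cell markers summed to 5012 to 6427 CPM in the 6 libraries, and all 9 of them had counts. Sdc4 had the largest counts (17345 to 21404), while Pax7 had 125 to 186 and Myf5 490 to 818. Sdc4 also had 1923 to 2263 counts in the Vg6 T cells of colon, so it is not particular to satellite cells. The 4 fibroblast markers summed to 4885 to 8078 CPM and the 9 smooth muscle and pericyte markers to 386.1 to 690.5 CPM in the 6 satellite cell libraries. Among the latter, Acta2 (1353 to 2512 counts) and Smtn (398 to 581 counts) had the largest counts. Myh11 had 1, 2 and 1 counts in wild-type and 129, 35 and 1 counts in Tcrd-DTR cells. Smooth muscle can express Des too, and the part of these cells in the Des level was not tested.

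One library stood apart. Tcrd-DTR replicate 1 held 1636 CPM of Acta1, where the other 5 held 14.1 to 21.2 CPM, and 9.48 CPM of Actc1 and 37.0 CPM of Myot, where the others held at most 0.166 CPM of either. Its 12 myofibre markers summed to 2538 CPM, against 56.8 to 105.6 CPM in the other libraries. It had 11.2 Acta1 counts per Actn3 count, a ratio of 0.326 to 0.389 in wild-type satellite cells and 10.98 to 12.19 in whole muscle of day 1. The part of fibre RNA in this library was not tested further.

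Between the genotypes none of the 5 members that could be tested in satellite cells passed (0 of all 12081 genes, 0%, edgeR; 719 genes at an unadjusted p under 0.05, and 11 by DESeq2). With all libraries the log2 change of Acta1 was 5.13 ± 2.34 (adjusted p = 0.832), and without Tcrd-DTR replicate 1 it was 0.27 (adjusted p = 0.956, edgeR). Actn3 was 0.63 with and −0.57 without that library, Ttn 1.38 with and −0.14 without, and Neb 1.67 with and −0.16 without, none past the test. Des was −0.38 ± 0.16 with (adjusted p = 0.818) and −0.45 without it (adjusted p = 0.956, edgeR).

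**Figure D5:**
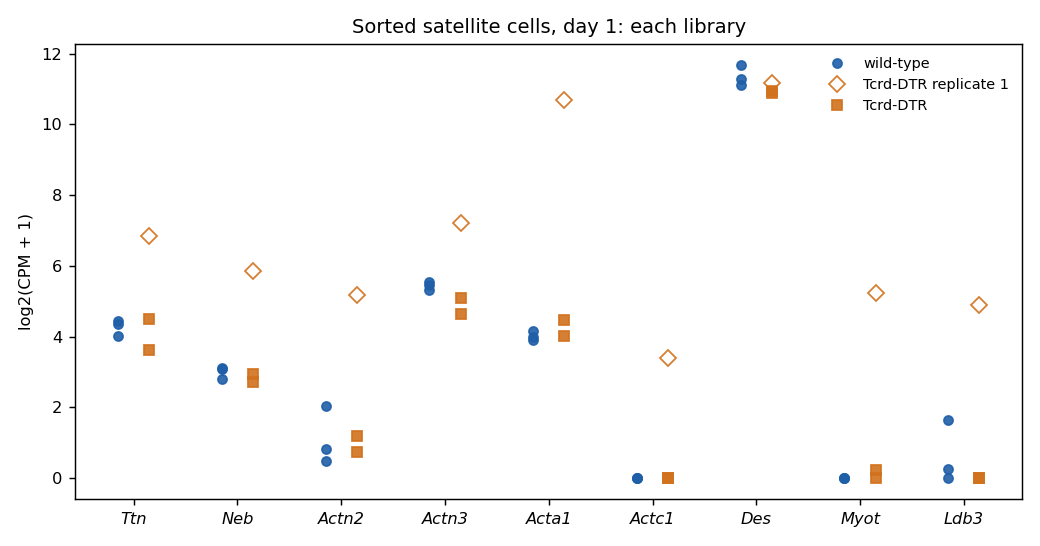
Log2(CPM + 1) of the 9 genes in each satellite cell library of day 1, wild-type as circles, Tcrd-DTR as squares and Tcrd-DTR replicate 1 as an open diamond. The diamond lies above the other 5 libraries for every gene except Des, which is high in all 6.

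In sorted Vg6 T cells 2 members, Actn2 and Neb, passed the test between the tissues. Actn2 stood at 219.3, 203.5 and 193.0 CPM in colon cells and 335.2, 335.5 and 322.9 CPM in muscle cells, 1.58-fold higher in muscle (log2 change 0.66 ± 0.09, adjusted p = 4.41e-05, edgeR), where 12.3% of all genes were called higher. Neb stood at 106.8, 59.7 and 90.3 CPM in colon and 3.10, 8.12 and 4.16 CPM in muscle cells, 17.04-fold lower in muscle (adjusted p = 2.42e-07, edgeR), where 12.2% were called lower. Ttn, at 2.50 to 3.33 CPM in colon and 1.63 to 13.3 CPM in muscle cells, did not pass (adjusted p = 0.149, edgeR; 0.021 without muscle replicate 1). The other 6 members were at or below 2.22 CPM in every Vg6 library. The 12 myofibre markers summed to 14.8 to 25.5 CPM over these 6 libraries, and 3 T cell markers to 2713 to 4096 CPM. Tissue, injury and the place of isolation differ together between these groups and cannot be told apart.

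Over the 27 whole-muscle libraries the members were linked to different neighbours, by Pearson correlation of log2 CPM among 10364 genes. These points share days, injury and depth, so the values are descriptions. Ttn and Neb were most like Cacna1s, the voltage sensor of the muscle calcium channel (r = 0.946 and 0.972), with Dmd, dystrophin, among the 3 nearest of Ttn and the calcium release channel Ryr1 among those of Neb. Cacna1s, Ryr1 and Dmd have long transcripts too. Actn3 was most like the fast myosin Myh4 (r = 0.986) and Actn2 most like the fast myosin Myh1 (r = 0.973). Acta1 was nearest to Eno3, the muscle enolase (r = 0.985), Actc1 to Foxo6os (r = 0.959), Myot to Tpd52l1 (r = 0.98), Ldb3 to Nctc1 (r = 0.98) and Des to Synpo2l (r = 0.922). Among the members themselves Ttn and Neb reached r = 0.935 and Myot and Ldb3 0.915, while Ttn with Actc1 gave 0.481 and Ttn with Acta1 0.511.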

How the data were processed

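The series holds polyA RNA-seq of whole muscle and sorted cells, 39 libraries in 14 groups of 2 or 3, which the labels describe as independent biological replicates. The authors deposited raw counts per gene symbol. Per the submitters' processing notes, STAR 2.7.3a, featureCounts of Subread 2.0.0 and the mm10 build were used. How the libraries were prepared, which gene models and strand option were used and how multimapping reads were handled is not given in the sources used here. The labels name no batch.

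Counts were tested with edgeR 4.0.16 in R 4.3.3 (robust quasi-likelihood, TMM scaling, filterByExpr with a minimum count of 10 and total of 15, Benjamini-Hochberg adjustment over all tested genes, threshold 0.05). The time course was fitted over 23 libraries (18264 genes), and the cytokine (12896 genes), satellite cell (12081 genes) and Vg6 (11907 genes) libraries separately. Scripts were tested on simulated counts in which 100 genes of any level changed 2-fold and 100 changed 4-fold. The test recovered 11 and 48 of these between the genotypes at day 7 and 22 and 67 for rIL-17A. In satellite cells it recovered 43 and 88, and in Vg6 cells 73 and 82. Likeness used log2 CPM with a prior count of 2 and genes of at least 5 CPM on average. CPM per kb used the longest GENCODE vM21 transcript (GRCm38), found for 52936 of the 55011 symbols. The length offset was a robust spline (4 degrees of freedom) of each library's deviations on log length, with the members left out. Promoters came from RefSeq and were looked up for the members other than Myot. Entries of 6 members were found and used (the first of 2 entries for Ldb3), and the printed motifs were searched on both strands.

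The members were named throughout, and partner genes were taken from the up to 4 genes of each list past the threshold with the smallest p. Members and lists were chosen with earlier results of these data known. Alternatives were DESeq2 1.42.0, its size factors, column totals, no filter, length and GC offsets, a replicate block, single-day fits and leaving out each library. Same-numbered libraries did not deviate together throughout, so the numbers were not taken to pair them. Replicates differed beyond counting noise, at a chi-square of at least 3.43 per degree of freedom. Figures were drawn with matplotlib 3.10.9.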

Additional observations from a re-analysis of the deposited data

Results flagged for a closer look

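Trim63, the MuRF1 ubiquitin ligase, differed between the genotypes in its course over the days by the interaction test (adjusted p = 0.0425, edgeR). It was lower in Tcrd-DTR than in wild-type muscle at day 7 (36.9 against 102.9 CPM). The interaction did not pass without any 1 library of day 14 (adjusted p = 0.0538 to 0.0807, edgeR). Nor did it pass without any 1 Tcrd-DTR library of day 3 (adjusted p = 0.0511 to 0.0694, edgeR). The same held without wild-type day 1 replicate 2 or 3, day 3 replicate 1 or 2, or day 7 replicate 3 (adjusted p = 0.0532 to 0.116, edgeR). With the replicate number as a block the adjusted p was 0.0581 (edgeR). The interaction was also lost without Tcrd-DTR day 7 replicate 2, a fit that leaves 1 library in that group. The log2 change at day 7 was then −0.82, beside −1.20 with all libraries.

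Actn2 moved in opposite directions in CPM between days 7 and 14, with every wild-type library lower at day 14 (2806 to 2907 CPM) than at day 7 (2929 to 3415 CPM) and every Tcrd-DTR library higher (2932 to 3369 CPM against 2437 and 2609 CPM). The same values place the Tcrd-DTR libraries below wild-type at day 7 and above it at day 14. The interaction test over all days gave an adjusted p of 0.891 for Actn2 (edgeR), and the contrast of these days alone was not tested. On the TMM scale the log2 change from day 7 to day 14 was negative in both genotypes (−0.32 in wild-type and −0.07 in Tcrd-DTR muscle, neither past the test).

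Des also moved in opposite directions in CPM. From day 3 to day 7 it went up in wild-type muscle (2232 to 3975 CPM, then 4693 to 5597 CPM) and down in Tcrd-DTR muscle (3375 to 3761 CPM, then 2918 and 2956 CPM). From day 7 to day 14 it went down in wild-type (4066 to 4536 CPM) and up in Tcrd-DTR muscle (4449 to 4969 CPM). The interaction test gave an adjusted p of 0.551 for Des (edgeR). On the TMM scale both genotypes had a positive log2 change from day 3 to day 7.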

How the results depend on the processing

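The number of members called stayed within 1.5 times its value in 104 of 115 settings other than leaving out a library, and in 104 of 119 fits without 1 library. With column totals alone 1 member passed between the genotypes at day 7, 5 rose in Tcrd-DTR muscle from day 3 to day 7, and the log2 changes of Des (−0.31, Tcrd-DTR) and Mef2d (−0.023, wild-type) over those days turned negative. With no filter on low counts 1 member passed from day 7 to day 14 in each genotype and 1 from day 1 to day 3 in Tcrd-DTR muscle, where DESeq2 called 5. With the length offset, and with length and GC content together, 0 members passed from day 7 to day 14 in either genotype. Among called changes the length offset reversed Neb (−0.050) and Plec (−0.13) in wild-type and Ttn (−0.21) and Plec (−0.0048) in Tcrd-DTR muscle, and the offset with GC reversed Plec (−0.11) in wild-type and Ttn (−0.066) in Tcrd-DTR muscle. Neb in Tcrd-DTR muscle, not called from day 7 to day 14, also changed sign (0.77, then −0.79 with the length offset and −0.64 with GC added). It passed there with column totals (1.17, adjusted p = 0.00541), DESeq2 size factors (1.02, 0.0267) and DESeq2 (1.02, adjusted p = 0.0112). Leaving out 1 library gave 1 to 2 members in wild-type and 0 to 2 in Tcrd-DTR muscle from day 7 to day 14, 0 to 6 in Tcrd-DTR muscle from day 1 to day 3 and 5 to 7 from day 3 to day 7, 5 to 7 in wild-type muscle from day 1 to day 3, 5 to 7 for rIL-17A and 2 to 3 in Vg6 cells. Where no cause is given by the setting itself, the cause was not tested.

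With the replicate number as a block, 1 member passed from day 7 to day 14 in Tcrd-DTR muscle, 2 in wild-type muscle, 5 and 2 from day 1 to day 3 in wild-type and Tcrd-DTR muscle, 9 and 7 from day 3 to day 7, 9 over time in each genotype, 5 for rIL-17A, and 0 between the genotypes on any day, in the interaction and in satellite cells. The block ended the calls of Actn2 (wild-type) and Ttn (Tcrd-DTR) from day 1 to day 3, Des and Actc1 in Tcrd-DTR muscle at the later steps, and Actn3 and Acta1 for rIL-17A.

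Over all genes, the count between genotypes at day 7 was 368, and 955 with DESeq2, 608 with column totals, 137 with the block and 92 from that day alone. At day 14 it was 14, and 46 with DESeq2, 55 with no filter, 36 with the block and 80 from that day alone. The interaction gave 111 genes, 579 with DESeq2, 211 with column totals and 519 with no filter. Counts of 0 became 17 (day 1), 34 (day 3) and 101 (satellite cells) with no filter, and at day 3 they became 8 with the block, 2 with DESeq2 and 1 with column totals. Groups of 2 or 3 libraries and totals down to 2372139 counts limit all of these.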
